A study of Mus musculus with 9 samples.

Results

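The collagen, laminin and basement membrane genes were examined in the parental line MC38-P and in MC38-LM3a and MC38-LM3b, selected from it in the liver. Members were every listed gene whose symbol is that of a collagen chain or a laminin chain, together with Nid1, Nid2, Hspg2, Agrn, Sparc, Bgn, Dcn, Fbn1, Tnc and Postn. They came to 59 of the 16399 genes listed, and 32 of them reached 1 TPM (a transcript level scaled to transcript length and to the library total) in 3 or more of the 9 libraries and were tested. MC38 is a mouse colon carcinoma line of the C57BL/6 strain, and MC38-P is the parental population, labelled with GFP and firefly luciferase. MC38-LM3a and MC38-LM3b carry the same reporters and are derivatives from successive rounds of selection in mice with intact immunity. The paper calls them independently derived at the third generation. For the earlier generations it names only MC38-LM1 and MC38-LM2, so the derivatives may share their earlier rounds. In each round cells placed in the spleen seeded the liver, and the tumour cells found there were digested out with collagenase and cultured again. All groups were sequenced as cultured cells, with 3 replicates each. Each derivative is 1 line, so replicates measure the spread between cultures of that line and not between series of selection.

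A basement membrane is a thin sheet of matrix under epithelia and around vessels. Laminin trimers and type IV collagen each form a network, and nidogen and the proteoglycans perlecan and agrin bind the networks together. Interstitial matrix lies outside it and is built on fibrils of type I, III and V collagen, with type VI collagen filaments between fibrils and cells. In the liver, most fibrillar collagen is ascribed to stellate cells and fibroblasts, while carcinoma cells are known to make basement membrane components themselves.

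Each library listed between 10875 and 11218 genes at 1 TPM or more, and the depth of the libraries is unknown, since only TPM values were at hand. Libraries differed in how the level followed transcript length. Against its own group's other replicates, MC38-P replicate 3 was lower for long transcripts (Spearman rho of the difference with length -0.62 across 11096 genes) and MC38-LM3a replicate 3 was higher for them (rho 0.64). The 32 tested members have long transcripts, 2300 to 14187 nt with a median of 6105 nt, compared to 3427 nt for all tested genes. Of the 32 members, 31 were lower in MC38-P replicate 3 than the mean of its partners, and all 32 were higher in MC38-LM3a replicate 3 than the mean of its partners. Except for Col16a1, Col20a1 and Col9a3, the fold change of each tested member that a result names is therefore given on the deposited values. Values after a correction for transcript length and GC content are added where they changed a call or moved by more than 1.5 times. The correction was made in each library and brought those correlations to -0.05 and 0.10. The correction also removes any difference between cells that follows length.

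The libraries were labelled as epithelial cells. Krt8 and Krt18, keratins of simple epithelia, stood at 744 to 1206 TPM and 707 to 981 TPM, Epcam at 1.87 to 6.31 TPM, and Cdh1, which encodes E-cadherin, at 0.08 TPM or less in every library. Of the 10 epithelial markers 6 were tested, and 4 of them (Epcam, Krt8, Krt18 and Cdx2) fell in each derivative (13.8% of all genes in MC38-LM3a and 11.2% in MC38-LM3b), while Krt19 and Krt20 rose in MC38-LM3a (14.1% of all genes). Epcam fell from a mean of 5.76 TPM to 2.05 and 2.21 TPM (log2 fold changes -1.14 and -1.08, adjusted p = 9.61e-05 and 0.000104) and Krt8 from 1127 TPM to 806 and 764 TPM (-0.48 and -0.56, adjusted p = 0.000465 and 0.000134), beside the matrix falls described here, and their part in those was not tested. Vim, a mesenchymal intermediate filament gene, stood at 2730 to 3491 TPM. Markers of other liver cells were low. The summed level of the 7 listed hepatocyte markers was at most 0.39 TPM in MC38-P and 0.13 TPM in MC38-LM3b, and it was highest, at 1.26 TPM, in MC38-LM3a replicate 3, the library that was also higher for long transcripts. That of the 7 listed endothelial markers was 1.53 to 2.55 TPM, and Ptprc, the pan-leukocyte marker, was at 0.09 TPM or less. The 4 listed macrophage markers summed to 27.8 to 29.7 TPM in MC38-P, 34.3 to 41.0 TPM in MC38-LM3a, then 40.0 to 45.6 TPM in MC38-LM3b, nearly all of it Cd68.

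Compared to MC38-P, the type VI collagen genes Col6a1 and Col6a2, the type I gene Col1a1 and the type III gene Col3a1 were lower in both derivatives, and the nidogen gene Nid1 was higher. In MC38-LM3a, 12 of the 32 tested members were lower at an adjusted p-value under 0.05 (limma, Benjamini-Hochberg over all genes tested), against 13.8% of all genes, and 4 were higher, against 14.1% of all genes. In MC38-LM3b, 7 members were lower, against 11.2% of all genes, and 15 were higher, against 35.6%. These counts are a description, since 4 of the lower members in each derivative (Col6a2, Col23a1, Col27a1 and Lamb3) reached the test only through MC38-P and 2 of the higher ones (Col24a1 and Col8a1) only through the derivatives, the groups where they were high. DEGs, which also needed an absolute log2 fold change above 1, were in MC38-LM3a Col6a1, Col6a2, Col1a1 and Col3a1, all 4 lower, against 1.5% of all genes, and none higher, against 1.39%. In MC38-LM3b the DEGs were the same 4 genes, again lower, against 1.18%, with Nid1 and Col24a1 higher, against 2.76%. The median log2 fold change of the members was -0.04 for MC38-LM3a and 0.33 for MC38-LM3b, beside medians over all genes of 0.00 and 0.21.

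After the correction for length and GC content, 14 members were higher (30.5% of all genes) and 11 lower (20.6% of all genes) in MC38-LM3a, and 14 were higher (34.1%) and 12 lower (24.4%) in MC38-LM3b. The member medians were then 0.12 and 0.13, beside 0.04 and 0.06 over all genes. When the libraries were only centred on their medians, which removes the shift of 0.21 in MC38-LM3b, 9 members were higher (22.9% of all genes) and 12 lower (26.4%) in that derivative. Over the 31 settings tried, the main one included, called in every one in which they were tested were 7 lower members in MC38-LM3a (8.02% of all genes) and 3 higher (8.21%), and 6 lower in MC38-LM3b (7.15%) and 7 higher (17.7%). Of these, Col6a2, Col23a1 and Col27a1 among the lower and Col24a1 and Col8a1 among the higher, in both derivatives, were again members tested only through the group where they were high. Both comparisons share the MC38-P libraries, and the derivatives may share earlier rounds of selection. Their values are therefore set side by side and are not independent.

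**Figure D1:**
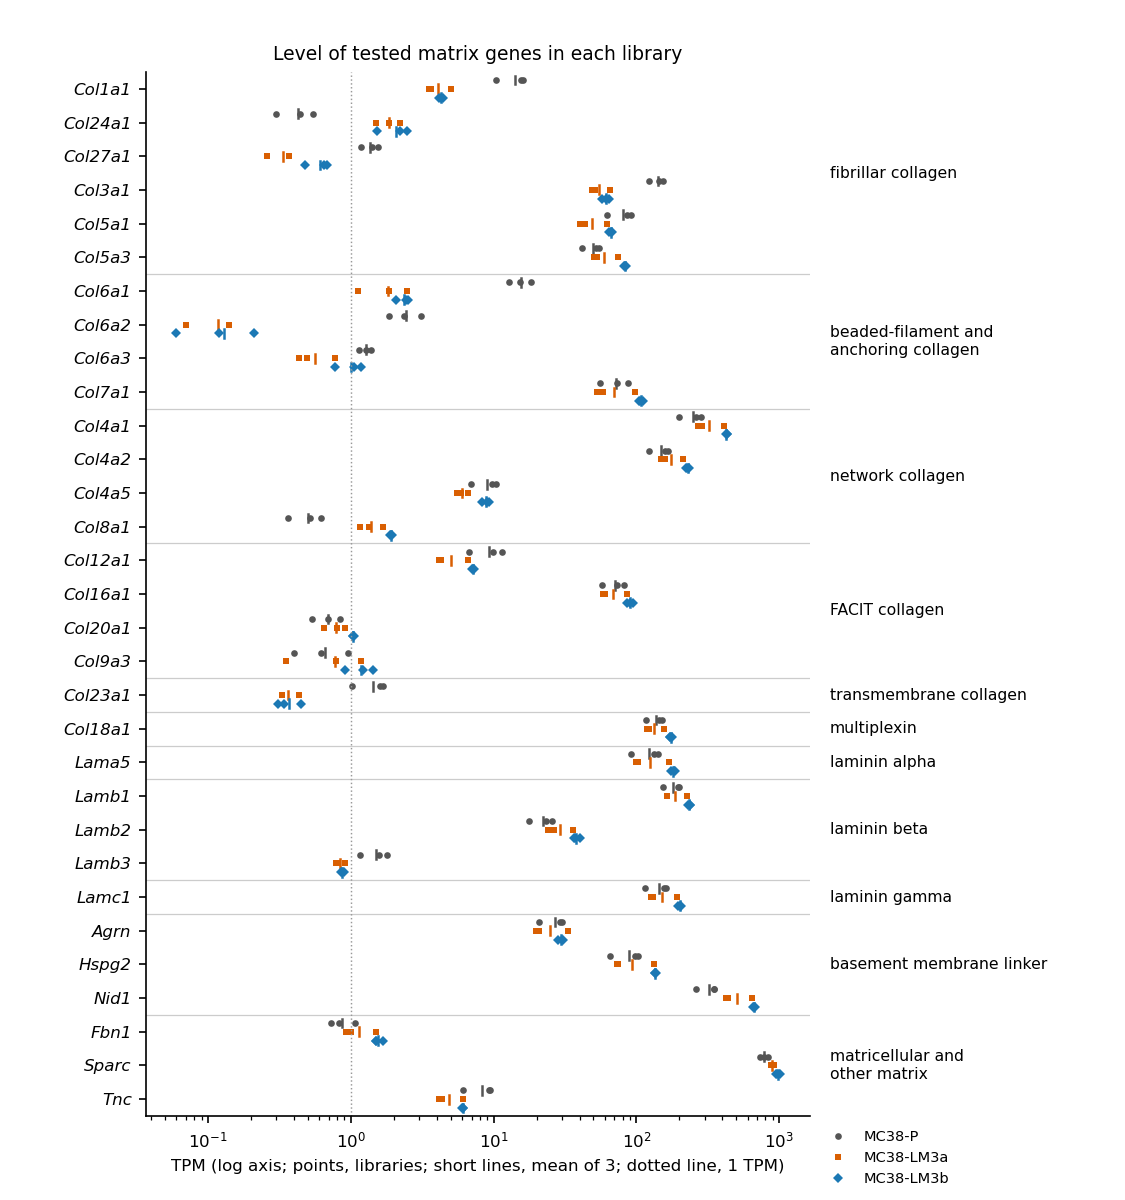
Level of 31 of the 32 tested matrix genes, in TPM on a log axis, in MC38-P (circles), MC38-LM3a (squares) and MC38-LM3b (diamonds). Each point is 1 library and short lines are means of 3, and the MC38-P points of Col6a1, Col6a2, Col1a1 and Col3a1 lie to the right of all 6 derivative points.

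Type VI collagen showed the largest differences. It forms beaded filaments from chains that assemble as one monomer, and Col6a1 and Col6a2 encode chains found in each monomer. Col6a1 stood at 18.26, 15.39 and 12.74 TPM in MC38-P, at 1.84, 1.13 and 2.47 TPM in MC38-LM3a, and at 2.53, 2.45 and 2.07 TPM in MC38-LM3b. All 3 parental libraries lay far above all 6 derivative libraries. The log2 fold change was -2.56 ± 0.18 (SE) compared to MC38-P in MC38-LM3a (limma, adjusted p = 5.29e-06), and it was -2.29 ± 0.18 for MC38-LM3b (adjusted p = 9.47e-06). Col6a2 fell from 3.12, 2.36 and 1.85 TPM to 0.07, 0.14 and 0.14 TPM in MC38-LM3a and 0.21, 0.06 and 0.12 TPM in MC38-LM3b, again without overlap. Its log2 fold changes were -1.61 and -1.59 (adjusted p = 2.43e-05 and 1.99e-05). Fold changes are on the log2(TPM + 1) scale, which understates the change of a gene as low as Col6a2, and Col6a2 was tested only because MC38-P expressed it.

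Col6a3, which encodes the largest chain of the monomer, was low in every group. It stood at 1.38, 1.28 and 1.14 TPM in MC38-P, 0.49, 0.43 and 0.77 TPM in MC38-LM3a and 0.77, 1.05 and 1.18 TPM in MC38-LM3b. It passed the test in MC38-LM3a on the deposited values (log2 fold change -0.54, adjusted p = 0.0106) and not after correction (-0.33, adjusted p = 0.0654). The opposite held in MC38-LM3b, with -0.19 (adjusted p = 0.258) before and -0.44 (adjusted p = 0.0185) after. The other type VI chains, Col6a4 and Col6a5, did not exceed 0.60 TPM.

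Col6a1 and Col6a2 lie on the same strand of mouse chromosome 10 with 102.4 kb between their start sites, and since they fell together the 250 bases before each start site are shown. The sequences are from RefSeq on GRCm38.p6, a different build from that of the files, read 5′ to 3′ on the gene's strand, with the outermost start site taken where several are listed. For these genes and those shown further on, capitals mark matches on either strand to 4 short motifs. These are the TATA box TATAAA, in 12.4% of all 32851 promoter windows of this length, the CCAAT box CCAAT, in 33.8%, the GC box GGGCGG, in 32.7%, and the AP-1 motif TGACTCA, in 4.46%. No matches overlapped in the stretches shown.
Col6a1, chr10:76726045-76726294, minus strand: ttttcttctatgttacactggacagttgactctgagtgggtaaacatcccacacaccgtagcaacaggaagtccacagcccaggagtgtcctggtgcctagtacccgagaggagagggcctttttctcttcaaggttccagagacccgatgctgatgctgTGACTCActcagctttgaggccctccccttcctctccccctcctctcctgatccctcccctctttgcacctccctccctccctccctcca
Col6a2, chr10:76623631-76623880, minus strand: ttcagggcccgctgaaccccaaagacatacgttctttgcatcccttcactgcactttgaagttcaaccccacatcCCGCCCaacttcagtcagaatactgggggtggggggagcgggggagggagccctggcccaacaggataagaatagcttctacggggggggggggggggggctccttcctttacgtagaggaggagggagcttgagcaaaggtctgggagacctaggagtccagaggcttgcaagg
The Col6a1 stretch held 1 AP-1 motif and none of the other 3, and the Col6a2 stretch held 1 GC box. The 2 stretches thus had none of the searched motifs in common.

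Fibrillar collagens moved in both directions. Col3a1, the chain of type III collagen and the most abundant fibrillar member in MC38-P, stood at 154.16, 144.50 and 122.84 TPM there, at 51.46, 48.58 and 64.81 TPM in MC38-LM3a and at 61.52, 57.03 and 64.15 TPM in MC38-LM3b. Every derivative library was lower than every parental one. The log2 fold changes were -1.34 ± 0.12 (SE, adjusted p = 2.08e-05) and -1.19 ± 0.12 (adjusted p = 3.64e-05). Col1a1, a chain of type I collagen, went from 15.62, 15.99 and 10.36 TPM to 3.66, 3.52 and 5.03 TPM in MC38-LM3a and 4.44, 4.17 and 4.30 TPM in MC38-LM3b. Both derivatives lay below MC38-P and overlapped with each other, and the log2 fold changes were -1.55 and -1.48 (adjusted p = 9.81e-05 and 9.91e-05). Its partner Col1a2 did not exceed 0.08 TPM in any library, so the Col1a1 message was present without that of the chain it usually assembles with.
Col3a1, chr1:45311288-45311537, plus strand: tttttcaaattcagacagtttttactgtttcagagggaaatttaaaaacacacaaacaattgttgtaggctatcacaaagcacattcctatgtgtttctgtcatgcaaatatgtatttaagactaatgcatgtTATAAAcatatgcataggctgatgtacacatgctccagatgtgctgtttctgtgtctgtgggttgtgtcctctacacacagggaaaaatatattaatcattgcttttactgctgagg
This stretch before the Col3a1 start, shown because Col3a1 fell with Col6a1 and Col6a2, held 1 TATA box and no match to the other 3 motifs.

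Of the type V chains, Col5a1 averaged 79.9 ± 15.9 TPM (SD, n = 3) for MC38-P, 48.7 ± 12.2 TPM for MC38-LM3a and 66.1 ± 1.89 TPM for MC38-LM3b. It was lower in MC38-LM3a (log2 fold change -0.71, adjusted p = 0.0105). In MC38-LM3b it passed only after correction (-0.25, adjusted p = 0.243 before, and -0.51, adjusted p = 5.02e-06 after). Col5a3 averaged 49.4 ± 6.98, 59.5 ± 13.2 and 82.9 ± 1.36 TPM in the same order. It was higher in MC38-LM3b (log2 fold change 0.74, adjusted p = 0.00207), and in MC38-LM3a it was 0.25 (adjusted p = 0.223) before and 0.43 (adjusted p = 1.8e-05) after correction. Col5a2, the usual partner of Col5a1, was at 0.03 TPM or less.

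Of the low fibrillar members, Col24a1 rose and Col27a1 fell. Col24a1 stood at 0.44, 0.30 and 0.54 TPM in MC38-P, 1.85, 1.5 and 2.19 TPM in MC38-LM3a and 2.46, 2.21 and 1.53 TPM in MC38-LM3b, with no overlap between parental and derivative libraries. The log2 fold changes were 0.993 and 1.095 (adjusted p = 0.000779 and 0.000298), and 1.11 and 0.86 after correction, so that its DEG call moved from MC38-LM3b to MC38-LM3a. This move is no difference between the derivatives, since log2(TPM + 1) understates changes of genes this low. Over the settings the values reached 1.90 and 2.04, the former with a pseudocount of 0.1. Col27a1 averaged 1.37 ± 0.188 TPM in MC38-P, 0.333 ± 0.0635 TPM for MC38-LM3a and 0.603 ± 0.108 TPM for MC38-LM3b (log2 fold changes -0.83 and -0.57, adjusted p = 0.000465 and 0.00306). Col24a1 passed the filter only through the derivatives, as did Col8a1, Col9a3 and Col20a1, and Col27a1 only through MC38-P, as did Col6a2, Col23a1 and Lamb3. Being tested at all thus depended on the group where they were high, and their calls are given as a description.

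Fibroblasts and stellate cells are known as main makers of type I, III and VI collagen, so their markers are given beside these falls. Of 11 such markers, 9 were listed and 4 tested, of which 1 was higher (14.1% of all genes) and 1 lower (13.8%) in MC38-LM3a, and 2 were higher (35.6%) and 1 lower (11.2%) in MC38-LM3b. The 9 summed to 2738 to 2785 TPM in MC38-P, 3356 to 3497 TPM in MC38-LM3a, then 3270 to 3316 TPM in MC38-LM3b, nearly all of it Vim. Vim was higher in both (log2 fold changes 0.30 and 0.25, adjusted p = 0.000613 and 0.00133), though not in MC38-LM3b after correction (0.11, adjusted p = 0.157). Acta2, which encodes smooth muscle actin, fell from a mean of 4.14 ± 0.236 TPM to 1.77 ± 0.45 TPM for MC38-LM3a and 1.56 ± 0.445 TPM for MC38-LM3b. Pdgfrb averaged 1.54, 2.13 and 3.66 TPM in the 3 groups and was higher in MC38-LM3b (0.88, adjusted p = 0.000695), and in MC38-LM3a it passed only after correction (0.42, adjusted p = 0.00321). Pdgfra averaged 1.01, 0.703 and 1.12 TPM and passed in neither, and Des, which was not tested, averaged 0.887, 0.253 and 0.237 TPM. Cygb, a stellate cell marker that was not tested either, stood at 0.32 to 0.48 TPM in MC38-P and at 0.04 to 0.10 TPM in the derivatives, with no overlap. Reln, also untested, went the other way, from 0.01 to 0.02 TPM in MC38-P to 0.05 to 0.14 TPM in the derivatives, with no overlap. The remaining untested markers, Gfap and Rgs5, did not exceed 0.08 TPM in any library. Col1a2 and Dcn, members that fibroblasts also make, were at 0.05 to 0.08 TPM and 0.00 to 0.13 TPM in MC38-P, and in the derivatives Col1a2 was at 0.02 TPM or less and Dcn at 0 in every library. In these bulk libraries fewer cells of a kind and less RNA per cell cannot be told apart, and the part of either in the falls was not tested.

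**Figure D2:**
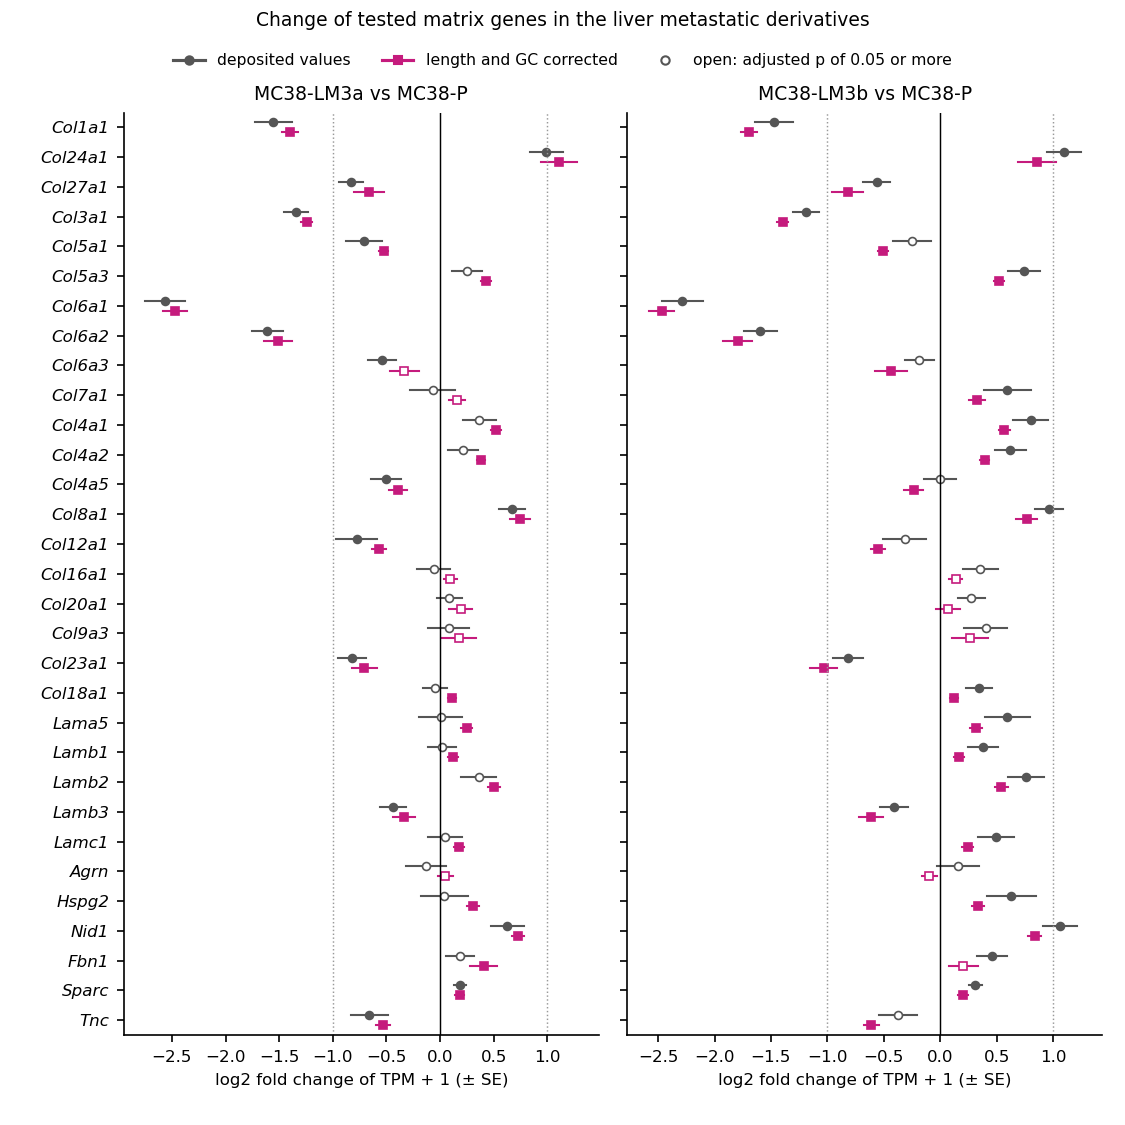
Log2 fold change of TPM + 1 against MC38-P for 31 of the 32 tested matrix genes, left for MC38-LM3a and right for MC38-LM3b, on deposited values (circles) and after length and GC correction (squares), with bars of 1 SE. Filled symbols passed an adjusted p-value of 0.05, dotted lines mark DEG limits of -1 and 1, and Col6a1 lies farthest to the left and Nid1 right of 0 in both panels.

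Among basement membrane genes, nidogen showed the clearest rise. Nid1, which encodes the protein that links laminin to type IV collagen, stood at 351.53, 349.99 and 263.04 TPM in MC38-P, 438.51, 426.68 and 641.87 TPM in MC38-LM3a and 651.85, 673.24 and 669.34 TPM in MC38-LM3b. All derivative libraries exceeded all parental ones. The log2 fold change was 0.63 ± 0.15 (SE) for MC38-LM3a and 1.06 ± 0.15 for MC38-LM3b (adjusted p = 0.0104 and 0.000369), and after correction it was 0.73 and 0.84, below the DEG limit in both. Over the 31 settings the value in MC38-LM3a ran from 0.30 to 0.76 and passed in each. Nid2, the other nidogen gene, was at 0.02 TPM or less.
Nid1, chr13:13437352-13437601, plus strand: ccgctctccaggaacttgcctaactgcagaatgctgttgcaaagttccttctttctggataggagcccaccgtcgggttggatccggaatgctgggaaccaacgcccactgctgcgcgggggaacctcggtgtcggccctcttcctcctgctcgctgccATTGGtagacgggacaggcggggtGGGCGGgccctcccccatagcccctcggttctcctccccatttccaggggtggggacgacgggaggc
The stretch before the Nid1 start is shown since Nid1 rose in both derivatives, and it held 1 CCAAT box and 1 GC box, with no TATA box or AP-1 motif.

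The type IV collagen chains Col4a1 and Col4a2, which form the network's common trimer, were higher in MC38-LM3b. Col4a1 stood at 281.31, 261.35 and 198.53 TPM in MC38-P, 285.42, 269.04 and 409.86 TPM in MC38-LM3a and 429.02, 427.16 and 423.33 TPM in MC38-LM3b. Only MC38-LM3b lay wholly above MC38-P, with a log2 fold change of 0.80 (adjusted p = 0.00229). Col4a2 averaged 149 ± 23.9, 173 ± 35.0 and 228 ± 5.99 TPM and was 0.62 higher in MC38-LM3b (adjusted p = 0.00501), and 0.39 after correction (adjusted p = 9.23e-06). In MC38-LM3a the log2 fold changes were 0.37 and 0.21 (adjusted p = 0.108 and 0.302), and 0.52 and 0.39 after correction (adjusted p = 8.48e-06 and 1.26e-05). Col4a5, a chain of other type IV trimers, averaged 9.04 ± 1.82, 6.01 ± 0.527 and 8.89 ± 0.514 TPM. It was lower in MC38-LM3a (-0.50, adjusted p = 0.0227), where it passed in 25 of the 31 settings, but not with the replicate block. In MC38-LM3b it was -0.01 (adjusted p = 0.975) before and -0.24 (adjusted p = 0.0289) after correction.

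Col4a1 and Col4a2 lie head to head on chromosome 8, with 21 bases from one start site to the other, and the stretch that holds both start sites is shown on the strand of Col4a2.
Col4a1 and Col4a2, chr8:11312805-11312826, plus strand: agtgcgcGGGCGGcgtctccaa
It held 1 GC box, which 7.19% of the stretches of 22 bases just before the start sites in the RefSeq table also held.

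Laminins assemble from an alpha, a beta and a gamma chain. The abundant chains were Lama5, Lamb1 and Lamc1, with Lamb2 at a lower level. Lama5 stood at 142.57, 132.24 and 91.14 TPM in MC38-P, 102.84, 99.70 and 170.05 TPM in MC38-LM3a and 187.33, 181.72 and 175.65 TPM in MC38-LM3b. Lamb1 averaged 181 ± 25.2, 185 ± 36.1 and 234 ± 4.37 TPM, and Lamc1 144 ± 25.1, 150 ± 37.2 and 201 ± 3.78 TPM. MC38-LM3b lay wholly above MC38-P for all 3 chains, whereas MC38-LM3a overlapped MC38-P. The log2 fold changes in MC38-LM3b were 0.60, 0.38 and 0.49 (adjusted p = 0.0333, 0.0353 and 0.0282), and 0.32, 0.17 and 0.24 after correction. Lamb1 no longer passed after median centring (0.155), and over the 31 settings Lama5 and Lamc1 passed in 25 and Lamb1 in 23. In MC38-LM3a they were 0.01, 0.02 and 0.05 (adjusted p = 0.985, 0.933 and 0.858), and after correction 0.25, 0.12 and 0.18 (adjusted p = 0.00237, 0.0373 and 0.00864). Without MC38-LM3a replicate 3 or MC38-P replicate 3 the sign on the deposited values in MC38-LM3a was negative for each, so no direction is given for these chains in that derivative.

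Lamb2 averaged 22.2 ± 4.11, 28.9 ± 6.46 and 37.9 ± 1.97 TPM and was 0.76 higher in MC38-LM3b (adjusted p = 0.00356). In MC38-LM3a it was 0.36 higher (adjusted p = 0.126), and 0.50 after correction (adjusted p = 3.84e-05). Lamb3, a beta chain at a low level, fell from 1.78, 1.57 and 1.15 TPM to 0.79, 0.81 and 0.91 TPM in MC38-LM3a and 0.90, 0.86 and 0.85 TPM in MC38-LM3b (log2 fold changes -0.44 and -0.41, adjusted p = 0.0215 and 0.019). Lamb3 too reached 1 TPM, and so the test, through MC38-P alone. Of the 30 settings in which it was tested, it passed in 21 in MC38-LM3a and in 26 in MC38-LM3b. The alpha chain gene Lama3 did not exceed 0.37 TPM.

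Perlecan and agrin are heparan sulfate proteoglycans of basement membranes. Hspg2, which encodes perlecan and has the longest transcript of the members, stood at 102.93, 97.85 and 65.46 TPM in MC38-P, 74.07, 72.97 and 132.22 TPM in MC38-LM3a and 136.15, 134.12 and 135.24 TPM in MC38-LM3b. It was higher in MC38-LM3b (log2 fold change 0.63, adjusted p = 0.037, and 0.33 after correction), but not after median centring (0.41), and it passed in 23 of the 31 settings. In MC38-LM3a it was 0.04 (adjusted p = 0.922) before and 0.31 (adjusted p = 0.000991) after correction. The MC38-LM3a value turned to -0.24 when MC38-LM3a replicate 3 was left out, the lowest among the alternatives that drop 1 library. Agrn averaged 26.7 ± 5.15, 24.7 ± 7.45 and 29.6 ± 1.11 TPM and passed in neither comparison (log2 fold changes -0.13 and 0.16, adjusted p = 0.658 and 0.499), and both signs turned after correction (0.05 and -0.10, adjusted p = 0.544 and 0.228). Col18a1, whose product is a basement membrane collagen that contains endostatin, averaged 137 ± 18.2, 133 ± 20.9 and 173 ± 2.41 TPM and was higher in MC38-LM3b (0.34, adjusted p = 0.0329, and 0.12 after correction), but not after median centring (0.12), and it passed in 20 of the 31 settings. In MC38-LM3a it was -0.05 (adjusted p = 0.804) before and 0.11 (adjusted p = 0.0278) after correction.

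Further collagens with a called change were an anchoring, a fibril-associated and a transmembrane collagen. Col7a1, which forms the anchoring fibrils that tie basement membrane to stroma, averaged 71.6 ± 15.6, 69.6 ± 24.2 and 107 ± 3.14 TPM. It was 0.60 higher in MC38-LM3b (adjusted p = 0.0376, and 0.33 after correction), but did not pass after median centring (0.37) and passed in 23 of the 31 settings. It was -0.07 (adjusted p = 0.846) in MC38-LM3a, where correction turned the sign to 0.16 (adjusted p = 0.0819). Col12a1, a collagen on the surface of fibrils, averaged 9.33 ± 2.37, 5.01 ± 1.39 and 7.14 ± 0.105 TPM. It was lower in MC38-LM3a (-0.78, adjusted p = 0.0118), whereas in MC38-LM3b it passed only after correction (-0.32, adjusted p = 0.191, and -0.55, adjusted p = 3.87e-05). Col23a1, a transmembrane collagen, fell from 1.59, 1.68 and 1.02 TPM to 0.33, 0.33 and 0.43 TPM in MC38-LM3a and 0.31, 0.34 and 0.45 TPM in MC38-LM3b. Its log2 fold change was -0.82 in both (adjusted p = 0.00107 and 0.000766), and its libraries did not overlap with those of MC38-P. After correction the value in MC38-LM3b was -1.03 (adjusted p = 2.64e-05), past the DEG limit. Col23a1 reached 1 TPM only in MC38-P and was tested through that group alone.

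Col8a1, a short-chain network collagen, rose from 0.62, 0.52 and 0.36 TPM in MC38-P to 1.16, 1.33 and 1.68 TPM in MC38-LM3a and 1.89, 1.91 and 1.94 TPM in MC38-LM3b. The groups did not overlap, and the log2 fold changes were 0.67 and 0.96 (adjusted p = 0.0024 and 0.000189). It reached 1 TPM only in the derivatives. The bases before its start are shown since they held the most motif matches of the stretches printed.
Col8a1, chr16:57754738-57754987, minus strand: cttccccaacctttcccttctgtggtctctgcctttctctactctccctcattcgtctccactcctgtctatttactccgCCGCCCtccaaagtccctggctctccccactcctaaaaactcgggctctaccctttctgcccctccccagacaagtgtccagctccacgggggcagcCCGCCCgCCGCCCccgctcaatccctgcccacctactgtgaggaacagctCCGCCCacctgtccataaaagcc
They held 4 GC boxes, each on the strand opposite to the gene, and none of the other 3 motifs.

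Matricellular proteins bind matrix and cell receptors without building the scaffold. Sparc, a collagen-binding glycoprotein and the member with the highest level, stood at 832.01, 785.67 and 737.70 TPM in MC38-P, 875.72, 884.20 and 918.29 TPM in MC38-LM3a and 1008.89, 963.93 and 948.54 TPM in MC38-LM3b. The groups did not overlap, but the rise was small, with log2 fold changes of 0.19 and 0.31 (adjusted p = 0.0325 and 0.00158). After correction the value in MC38-LM3b was 0.20 (adjusted p = 0.00227), and after median centring neither passed (0.19 and 0.09). Tnc, which encodes tenascin C, averaged 8.27 ± 1.87, 4.85 ± 1.06 and 6.06 ± 0.0153 TPM. It was lower in MC38-LM3a (-0.66, adjusted p = 0.015), where it passed in 25 of the 31 settings. In MC38-LM3b it did not pass on the deposited values (-0.37, adjusted p = 0.0933) and passed after correction (-0.61, adjusted p = 2.18e-05). Fbn1, the microfibril gene fibrillin, averaged 0.873, 1.14 and 1.56 TPM. In MC38-LM3b it was 0.46 (adjusted p = 0.0176) on the deposited values and 0.20 (adjusted p = 0.192) after correction, whereas in MC38-LM3a it was 0.19 (adjusted p = 0.34) and 0.41 (adjusted p = 0.02).

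The chains that assemble or bind together were also compared as ratios of TPM within a library, which are given as a description, since the smallest two-sided p of an exact permutation test of 3 libraries against 3 is 0.1. The ratio of Nid1 to Lamc1 was 2.18, 2.25 and 2.29 in MC38-P, 3.35, 3.37 and 3.33 for MC38-LM3a and 3.19, 3.35 and 3.40 for MC38-LM3b. Both derivatives lay above MC38-P and overlapped with each other, and MC38-LM3a replicate 3 did not stand apart. The ratio of Col4a1 to Col4a2, whose transcripts are close in length at 6615 and 6450 nt, was 1.66 ± 0.0272 (SD, n = 3) for MC38-P, 1.85 ± 0.0649 for MC38-LM3a and 1.87 ± 0.0378 for MC38-LM3b, again with no overlap between parental and derivative libraries. The ratio of Lamb1 to Lamc1 was 1.27 ± 0.0512, 1.24 ± 0.0593 and 1.17 ± 0.00499, and MC38-LM3a overlapped MC38-P. The ratio of Col3a1 to Col5a1 was 1.78 ± 0.175, 1.14 ± 0.0959 and 0.923 ± 0.0723, with no overlap among the 3 groups. These transcripts differ in length (5564 and 8406 nt), and the length-skewed libraries stood apart, MC38-P replicate 3 at 1.98 and MC38-LM3a replicate 3 at 1.04. The latter lay close to the highest MC38-LM3b value, 1.00. The summed level of the 8 basement membrane genes with a mean of at least 100 TPM (Col4a1, Col4a2, Col18a1, Lama5, Lamb1, Lamc1, Nid1 and Hspg2) was 1555, 1492 and 1124 TPM in MC38-P, 1477, 1425 and 2144 TPM in MC38-LM3a, and 2256, 2251 and 2224 TPM in MC38-LM3b. That of the 11 fibrillar genes was 319, 301 and 239 TPM, then 154, 145 and 210 TPM, then 221, 212 and 219 TPM. Fibrillar sums in every derivative library were thus below those of MC38-P, while the basement membrane sums of MC38-LM3a overlapped with them.

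**Figure D3:**
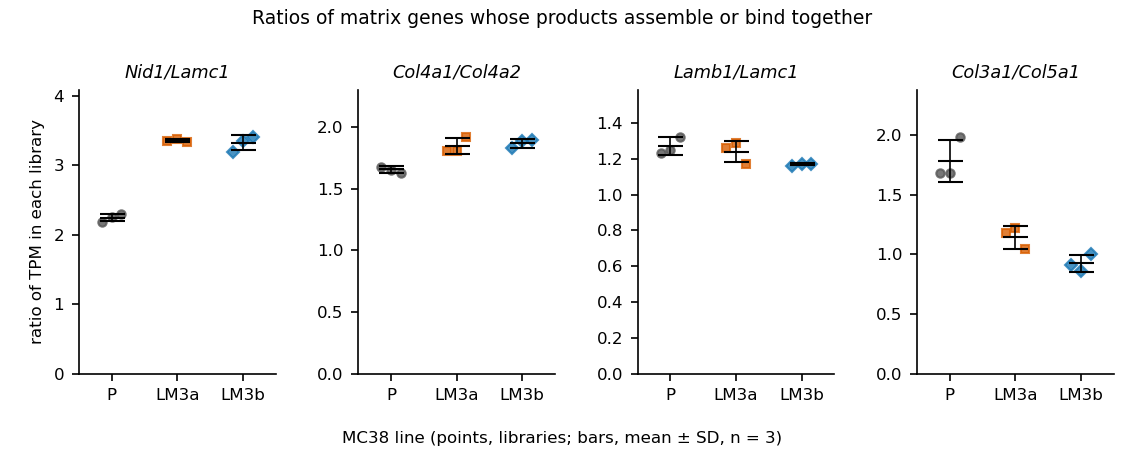
Ratio of TPM between 2 matrix genes in each library, by line, with points for libraries and bars for the mean and SD of 3. Nid1/Lamc1 is 2.18 to 2.29 in MC38-P and 3.19 to 3.40 in the derivatives, and Lamb1/Lamc1 overlaps between MC38-P and MC38-LM3a.

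The derivatives were then compared with each other. None of the 32 members passed in MC38-LM3b compared to MC38-LM3a (limma, 0.0532% of all genes passed), nor after correction (0.216% of all genes). At an unadjusted p under 0.05 there were 19 members, of 4296 genes in all, on the deposited values and 7, of 2386, after correction. On the deposited values all 32 members were higher in MC38-LM3b, by 0.00 (Col23a1) to 0.66 (Col7a1) on the log2 scale, with a median of 0.34 beside 0.21 over all genes. This difference followed transcript length, with a Spearman rho of 0.54 across the 32 members and 0.61 across all genes, given as a description of genes that share libraries. After correction the members ran from -0.33 (Col23a1) to 0.17 (Col7a1) with a median of 0.01. Their 95% intervals then lay between -0.63 (Col24a1) and 0.44 (Col9a3), and for 28 of the 32 within 0.5 on either side of 0. The count turned on 1 library. Without MC38-LM3a replicate 3, 24 members were higher in MC38-LM3b (56.3% of all genes passed in either direction), and 6 passed after correction, 3 in each direction (20.1% of all genes).

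**Figure D4:**
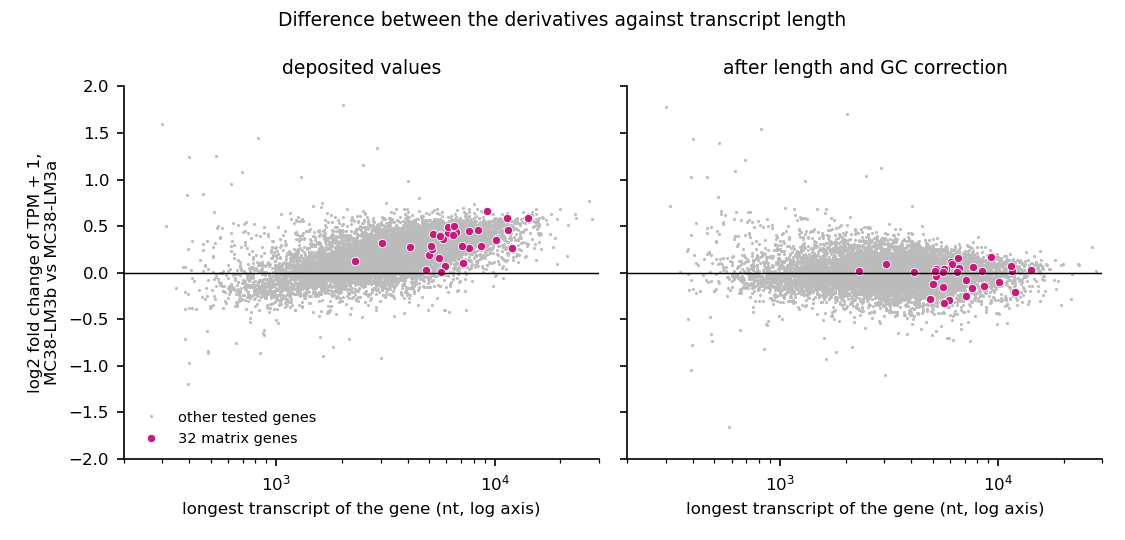
Log2 fold change of TPM + 1 in MC38-LM3b compared to MC38-LM3a against the length of each gene's longest transcript (log axis), for the 32 matrix genes (large points) and the other tested genes (small points), on deposited values at left and after length and GC correction at right. All 32 matrix genes lie above 0 at left, and they spread from -0.33 to 0.17 at right.

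Genes that make, export, bind or surround these matrix proteins were counted from 4 lists, and each count is to be read against the share of all genes, which was 14.1% higher and 13.8% lower in MC38-LM3a and 35.6% higher and 11.2% lower in MC38-LM3b, or 30.5% and 20.6%, then 34.1% and 24.4%, after correction. Of 17 tested genes for the modification and folding of collagen chains, 6 were higher and 4 lower in MC38-LM3a, and 10 were higher and 3 lower in MC38-LM3b. After correction 9 were higher and 4 lower, then 8 higher and 4 lower. The median log2 fold changes on the deposited values were 0.17 and 0.29, beside 0.00 and 0.21 over all genes. P4ha3, a catalytic subunit of prolyl 4-hydroxylase, rose from 17.3 ± 2.41 TPM to 31.8 ± 5.29 and 44.4 ± 3.6 TPM (log2 fold changes 0.84 and 1.32, adjusted p = 0.0011 and 4.88e-05). P3h4, a partner of the lysyl hydroxylases, fell from 75.7 ± 3.51 TPM to 43.9 ± 1.34 and 39.6 ± 3.31 TPM (-0.77 and -0.92, adjusted p = 6.35e-05 and 1.48e-05). Of 9 tested genes of collagen export and propeptide processing, none passed in MC38-LM3a (14.1% of all genes were higher), and 6 were higher in MC38-LM3b (35.6% of all genes). After correction 5 were higher in each (30.5% and 34.1% of all genes), and none was lower.

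Of 13 tested matrix receptors, 2 were higher and 2 lower in MC38-LM3a, and 6 were higher and 2 lower in MC38-LM3b. The shares in MC38-LM3a lay near those of all genes (14.1% and 13.8%). After correction 5 were higher and 2 lower in MC38-LM3a and 7 higher and 4 lower in MC38-LM3b. Itga3, one of the integrin chains of laminin receptors, rose from 111 ± 13.5 TPM to 165 ± 25.3 and 208 ± 5.22 TPM (0.56 and 0.90, adjusted p = 0.00374 and 0.000153). Sdc1, which encodes the proteoglycan syndecan, fell from 72.3 ± 4.3 TPM to 42.6 ± 2.95 and 45.8 ± 1.05 TPM (-0.75 and -0.65, adjusted p = 6.6e-05 and 0.000124). Of 12 tested genes for other matrix proteins, 2 were higher and 6 lower in MC38-LM3a, and 3 were higher and 3 lower in MC38-LM3b, where 35.6% of all genes were higher. After correction the counts were 3 higher and 6 lower in each. Emilin1, an elastic fibre glycoprotein, rose from 11.26, 10.67 and 9.05 TPM to 30.89, 28.53 and 37.61 TPM in MC38-LM3a and 55.34, 48.83 and 52.10 TPM in MC38-LM3b (1.55 and 2.23, adjusted p = 8.23e-06 and 5.15e-07). Fn1, fibronectin, fell from 63.77, 61.82 and 39.94 TPM to 13.73, 11.78 and 20.21 TPM in MC38-LM3a and 25.49, 23.51 and 24.29 TPM in MC38-LM3b (-1.79 and -1.11, adjusted p = 0.000116 and 0.00149).

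The 27 members that were not tested did not exceed 0.60 TPM, and 16 of them did not exceed 0.1 TPM in any library. They included Bgn, Dcn and Postn, small proteoglycan and matricellular genes of stromal cells, at no more than 0.37, 0.13 and 0.07 TPM. Col16a1, Col20a1 and Col9a3 passed the test in neither comparison with MC38-P, before or after correction, and Col16a1 was the most abundant of these 3 at 57.8 to 94.2 TPM.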

How the data were processed

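RNA from cultures of MC38-P and both derivatives (3 replicates each) was poly(A)-selected and sequenced on DNBSEQ. The authors deposited TPM rounded to 2 decimals; their processing notes name HISAT and GRCm39, and the quantifier is not given in the sources used here. Depth is unknown, so no counting intervals are given. Values were analysed with limma 3.58.1 in R 4.3.3 on log2(TPM + 1), for the 11287 genes at 1 TPM or more in 3 libraries, in one fit of all 9 libraries with trended empirical Bayes variance and Benjamini-Hochberg adjustment over all tested genes. The correction subtracted a loess trend (span 0.3) on length and GC content of the longest GENCODE M21 transcript (GRCm38), known for 11096 genes (98.3%). The procedure was run on simulated data with a trend on length alone and with changes larger than most reported here. It therefore does not check small changes or the GC part of the correction. No library pair held the same values. Whether replicate numbers pair the libraries is not known, and the replicate block was run as an alternative.

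Members and lists were chosen with earlier results of these data known. Named were DEGs, the 5 members with the highest level, the members the rule lists by symbol, the largest called rise and fall in each role group, and the largest called in both comparisons in each list; the remaining members are given as counts or ranges, apart from some named after their values were seen (Col5a1, Col5a3, Col27a1, Col6a3, uncalled members and those at or near 0). Alternatives were another pseudocount (0.1), no filter, a filter at 5 TPM, only the libraries compared, replicate block, quantile and median normalization, and leaving out each library; leaving out 2 libraries together and a correction for length alone were added after the data were seen. One tested member is counted but not reported here by name.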

Additional observations from a re-analysis of the deposited data

How the results depend on the processing

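Depth is unknown, and 3 libraries a group limit all counts. The 4 lower DEGs numbered 4 in both comparisons when any 1 library was left out, with 4 to 5 in MC38-LM3b over both sets of values, and a pseudocount of 0.1 gave 7 in MC38-LM3a. The other counts moved, and the cause was not tested. They are no result about the members, since the share of all genes called moved with the setting too. With the correction it was 30.5% higher and 20.6% lower in MC38-LM3a, and 34.1% and 24.4% in MC38-LM3b. After median centring it was 22.9% and 26.4% in MC38-LM3b. For most of the other settings the share is not given here. In MC38-LM3a, higher members numbered 14 with the correction, 10 with that for length alone, 2 at 5 TPM, 12 with the replicate block and correction together, and 12 with the correction and both MC38-P replicate 3 and MC38-LM3a replicate 3 left out; leaving out 1 library gave 3 to 13. Lower members numbered 7 at 5 TPM, 20 without both libraries and 8 to 12 without 1. Higher DEGs numbered 1 under each form of the correction, 2 with a pseudocount of 0.1, and 0 to 1 without 1 library. In MC38-LM3b, higher members numbered 9 with the replicate block, 9 after median centring, and 8 to 16 without 1 library, with 8 without MC38-P replicate 3 or MC38-LM3b replicate 2 and 9 without MC38-LM3b replicate 1 or 3. Lower members numbered 12 with the correction, with the block and correction, without both libraries after correction, and after quantile or median normalization, 13 with the correction for length alone, 3 at 5 TPM and 6 to 12 without 1 library. Higher DEGs numbered 0 with the correction, with or without the block, with that for length alone and after median centring, 1 at 5 TPM, after quantile normalization and without both libraries before or after correction, and 0 to 3 without 1 library, with 1 without MC38-P replicate 3. Between the derivatives, members called numbered 0 to 24 without 1 library, 26 without both and 10 without both after correction. The 24, without MC38-LM3a replicate 3, stood beside 56.3% of all genes. Whether numbers pair the libraries was not settled. Same-numbered MC38-P and MC38-LM3a libraries deviated with correlations of -0.34, -0.17 and -0.66. Same-numbered MC38-LM3b libraries had small positive ones, 0.06, 0.06 and 0.04 with MC38-P and 0.06, 0.07 and 0.07 with MC38-LM3a. With MC38-LM3b, correlations of unlike numbers ran from -0.06 to 0.01.

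Of 1428 recomputed log2 fold changes of 24 named members, 1116 kept direction and side of the threshold, 139 newly passed, 99 no longer passed and 74 changed sign. Signs changed in MC38-LM3a for Agrn (0.051 with the correction, with or without the replicate block; -0.36 to 0.10 without 1 library), Col18a1 (0.11 with the correction, with or without the block; 0.10 without both libraries after correction; -0.17 to 0.12), Col7a1 (0.16 with the correction, with or without the block; 0.034 without both libraries after correction; 0.023 for length alone; -0.33 to 0.21), Col4a2 (-0.084 without both libraries), Hspg2 (-0.44 without both; -0.24 to 0.34), Lama5 (-0.44; -0.24 to 0.28), Lamb1 (-0.26; -0.14 to 0.15) and Lamc1 (-0.30; -0.15 to 0.21). In MC38-LM3b they changed for Col4a5 (-0.28 to 0.10 without 1 library) and Agrn (-0.10 with the correction, with or without the block; -0.065 after quantile or median normalization; -0.006 and -0.12 without both libraries, before and after correction; -0.15 for length alone; -0.13 to 0.25). None of these was called in the main values.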
